A study of Mus musculus with 10 samples.

Results

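Polycomb peaks were described at 8 genes of the Hedgehog pathway, among 22350 protein-coding genes of the mouse. The genes are the ligands Shh, Ihh and Dhh, the receptor Ptch1, the inhibitor Hhip and the transcription factors Gli1, Gli2 and Gli3. They were located by the GENCODE annotation of mm9, and the peaks that overlapped each gene body plus 10 kb on either side, here called the window of the gene, were taken from 6 lists.

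The lists come from ChIP-seq of mouse cells. J1 ESCs, a mouse embryonic stem cell line, were grown with serum and leukemia inhibitory factor on inactivated fibroblast feeders, which were depleted before cross-linking, and were profiled for Ring1b, Cbx2, Ezh2 and H3K27me3. NSCs were obtained from J1 ESCs by differentiation in culture, grown on gelatin with EGF and FGF, and profiled for Ring1b and H3K27me3. Every cell type and target has 1 library, with no treatment other than standard growth, so no difference between lists has a replicate check and no test was possible. The lists hold starts and ends of peaks on mm9 with no height or score. The depth of the libraries is unknown, and the absence of a peak means that no window passed the threshold of the authors. The NSC lists were shorter than their ESC counterparts (1389 against 2335 Ring1b peaks and 1647 against 2192 H3K27me3 peaks), so values at the 8 genes were read beside those over all protein-coding genes.

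Hedgehog ligands are secreted signals that pattern the embryo. Shh acts from the notochord, the floor plate and the limb bud, Ihh from cartilage and gut, and Dhh from the testis and from Schwann cells. Without ligand, Ptch1 holds the membrane protein Smo inactive and Gli3 is largely processed to a repressor. With ligand, Smo is released and Gli2 and Gli1 activate targets that include Ptch1, Hhip and Gli1 themselves. Ring1b and Cbx2 are subunits of Polycomb repressive complex 1 (PRC1), Ring1b being its ubiquitin ligase and Cbx2 a subunit that binds methylated histone H3. Ezh2 is the methyltransferase of Polycomb repressive complex 2 (PRC2) and deposits H3K27me3. In mammals both complexes are found mostly at CpG islands, stretches rich in the dinucleotide CpG.

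The sequences at start sites are shown first, so that the peaks can be read beside the CpG content of the DNA under them. The promoter table of RefSeq, whose build is GRCm38, held 6 of the 8 genes, not Shh and Gli1, and each of the 6 promoters matched mm9 exactly at 1 place. Printed are 250 bases before to 50 after the RefSeq start, on the minus strand of mm9 for Ihh (chr1:74998197-74998496), Gli2 (chr1:120950147-120950446), Dhh (chr15:98728922-98729221) and Ptch1 (chr13:63666994-63667293), and on the plus strand for Gli3 (chr13:15555306-15555605). For Ptch1, the 250 bases before the start site that GENCODE gives as the 5′ end of the gene are also shown (chr13:63674475-63674724, minus strand). Capitals mark CpGs.
Ihh RefSeq start: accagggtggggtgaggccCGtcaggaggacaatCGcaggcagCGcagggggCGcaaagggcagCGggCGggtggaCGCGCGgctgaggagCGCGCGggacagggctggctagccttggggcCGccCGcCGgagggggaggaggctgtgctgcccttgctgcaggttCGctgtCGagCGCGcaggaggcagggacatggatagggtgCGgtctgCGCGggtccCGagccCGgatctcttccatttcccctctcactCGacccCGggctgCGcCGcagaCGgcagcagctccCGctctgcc
Dhh RefSeq start: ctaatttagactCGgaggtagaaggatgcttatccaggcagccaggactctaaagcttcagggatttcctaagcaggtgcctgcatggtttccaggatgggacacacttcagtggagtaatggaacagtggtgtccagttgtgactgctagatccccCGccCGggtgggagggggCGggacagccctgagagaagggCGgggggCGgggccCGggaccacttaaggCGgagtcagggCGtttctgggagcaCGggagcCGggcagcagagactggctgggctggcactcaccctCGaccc
Gli2 RefSeq start: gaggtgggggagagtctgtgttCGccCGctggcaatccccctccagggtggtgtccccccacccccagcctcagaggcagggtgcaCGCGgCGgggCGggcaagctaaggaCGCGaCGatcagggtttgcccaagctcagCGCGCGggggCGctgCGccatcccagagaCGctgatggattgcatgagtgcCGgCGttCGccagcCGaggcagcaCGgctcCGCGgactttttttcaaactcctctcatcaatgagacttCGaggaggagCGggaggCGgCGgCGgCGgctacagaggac
Gli3 RefSeq start: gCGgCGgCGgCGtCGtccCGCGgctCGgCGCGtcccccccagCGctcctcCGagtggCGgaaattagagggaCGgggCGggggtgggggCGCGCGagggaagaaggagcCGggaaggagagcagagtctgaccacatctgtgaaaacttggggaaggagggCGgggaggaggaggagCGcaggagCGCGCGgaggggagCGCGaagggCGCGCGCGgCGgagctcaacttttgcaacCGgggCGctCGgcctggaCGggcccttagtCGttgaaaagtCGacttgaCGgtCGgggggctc
Ptch1 RefSeq start: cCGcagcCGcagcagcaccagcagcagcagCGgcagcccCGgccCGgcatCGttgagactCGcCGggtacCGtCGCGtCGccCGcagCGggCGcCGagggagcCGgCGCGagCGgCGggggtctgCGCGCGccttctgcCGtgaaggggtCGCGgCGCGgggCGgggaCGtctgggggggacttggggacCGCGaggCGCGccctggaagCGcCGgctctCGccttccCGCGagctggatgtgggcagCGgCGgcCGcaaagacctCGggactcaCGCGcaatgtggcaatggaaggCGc
Ptch1 before the GENCODE start: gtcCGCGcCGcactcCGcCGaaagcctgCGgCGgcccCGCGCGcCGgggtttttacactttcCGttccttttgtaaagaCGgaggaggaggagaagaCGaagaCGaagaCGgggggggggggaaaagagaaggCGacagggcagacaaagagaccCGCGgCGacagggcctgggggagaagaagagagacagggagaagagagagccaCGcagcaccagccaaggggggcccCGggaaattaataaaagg
The Ihh promoter held 30 CpGs and its start site lay in 3 ESC peaks. The Hhip promoter, which is not printed, also held 30 CpGs, and its RefSeq start lay in an H3K27me3 peak only. The Gli2 promoter, with 28 CpGs in the same length, lay in none of the 6 lists. The Ptch1 RefSeq promoter was the richest of those printed, with 47 CpGs, and lay in no peak. The stretch before the GENCODE start, with 22 CpGs in 250 bases, lay in ESC Ring1b and Ezh2 peaks and partly in an H3K27me3 peak. The Gli3 promoter held 39 CpGs and its RefSeq start lay in a Ring1b peak only. The Dhh promoter held 12 CpGs, the fewest of these, although its start site lay in Ring1b and Ezh2 peaks.

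In ESCs all 3 ligands had peaks of all 4 targets in their windows, and none of the other 5 genes did. Of all protein-coding genes, 1.98% had peaks of all 4 in the window. Counts over all 4 lists together, here and below, were chosen after seeing the data. Counted over peaks at least 2 kb wide, only Shh had all 4, against 1.27% of all genes, since the Cbx2 peak of Ihh and both Ezh2 peaks of Dhh are narrower. Counted by list, the window of 3 ligands and 3 other genes (Ptch1, Gli1 and Gli3) held a Ring1b peak, against 11.5% of all genes. A Cbx2 peak was found in the windows of the 3 ligands and of no other member, against 3.09% of all genes. Ezh2 peaks lay in the windows of the ligands and of Ptch1, against 5.28%, and H3K27me3 peaks in those of the ligands, Ptch1 and Hhip, against 9.97%. These are counts in single libraries, described with no test.

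Fewer of the genes had the start site itself inside a peak. The start sites of Shh, Ihh, Dhh and Ptch1 lay in ESC Ring1b peaks, against 7.03% of all start sites. The Shh start site alone lay in a Cbx2 peak, against 1.15%. Those of Ihh, Dhh and Ptch1 lay in Ezh2 peaks, against 2.56%, and those of Ihh, Ptch1 and Hhip in H3K27me3 peaks, against 4.31%. No member had its start site under all 4 ESC lists, which held for 0.752% of genes, although every ligand had all 4 within its body. Within 1 kb of the start site, Shh and Ihh had peaks of all 4, against 1.28% of genes.

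The windows differ in length, from 25.5 kb for Dhh to 286.8 kb for Gli3, so covered lengths are given beside shares. The ligands and Gli1 are short genes with windows of 25.5 to 31.7 kb, and the windows of the remaining genes measure 84.2 kb or more. The median share of the window under ESC Ring1b peaks was 24.3% for the ligands and 0.56%, the value of Gli3, for the other 5 genes. Among the 2572 protein-coding genes with a Ring1b peak in the window, whose windows also differ in length, it was 4.41%. The lengths under Ring1b peaks were closer: 11.2, 5.6 and 6.2 kb at Shh, Ihh and Dhh, 3 kb at Ptch1, 1.8 kb at Gli1 and 1.6 kb at Gli3. Hhip and Gli2 had 0. Gli1, with a window similar in length to those of the ligands, had a share of 5.68%. For Cbx2 the ligand median was 11.8% and the median of genes with a peak 4.83%. The same pair of medians was 11.4% and 4.52% for Ezh2, and 14.1% and 4.09% for H3K27me3. The median over the other 5 members was 0 for these 3 lists.

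**Figure D1:**
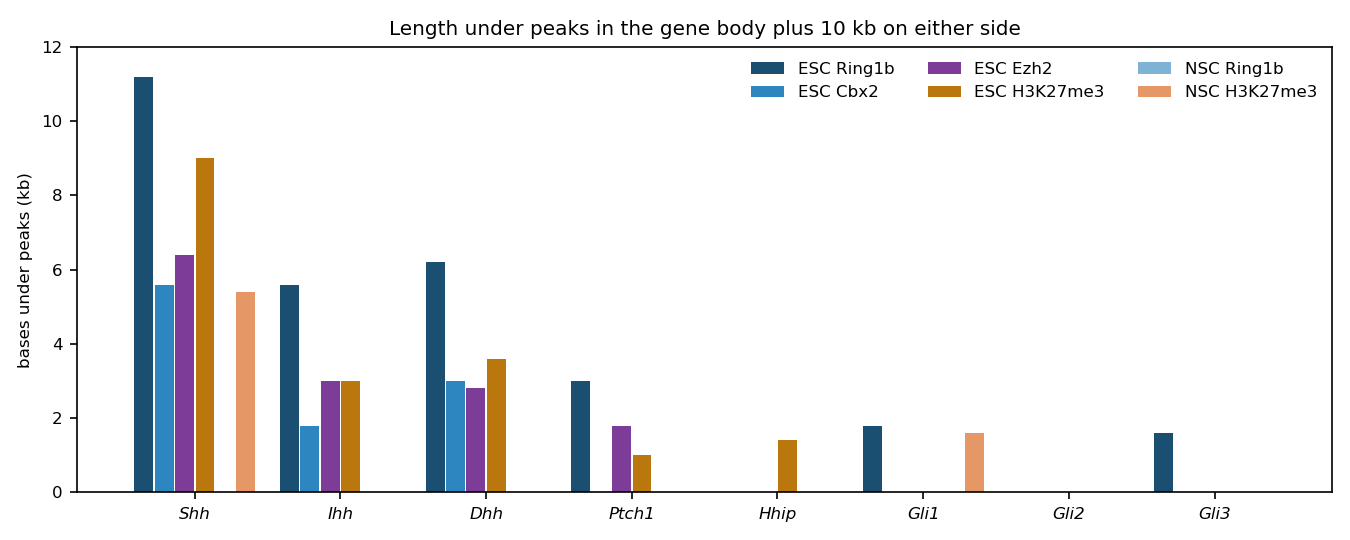
Bases under peaks (kb, vertical axis from 0) in the gene body plus 10 kb on either side, 1 bar per gene and peak list, with 1 library per list and no error bar. Shh had the longest bar in each ESC list and Gli2 had no bar; the single NSC list with any bar was H3K27me3, at Shh and Gli1.

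Shh was the most extensively covered of the 8 genes. It lies at chr5:28783355-28793641 on the minus strand (ENSMUSG00000002633.3), is 10.3 kb long and has 3 exons. A single ESC Ring1b peak of 11200 bp, from -759 to +10440 bp of the start site, covered the whole gene. It ranked 103 of the 2335 Ring1b peaks by width. One H3K27me3 peak of 9000 bp, from +641 to +9640 bp, covered 87.5% of the gene and ranked 20 of the 2192 peaks of its list. Both peaks therefore spanned the body of the gene rather than its start site alone, and the H3K27me3 peak began past the start site.

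The other ESC targets formed 2 separate peaks within Shh. Cbx2 peaks measured 3400 bp (-159 to +3240 bp) and 2200 bp (+6841 to +9040 bp). Ezh2 peaks measured 3000 bp (+241 to +3240 bp) and 3400 bp (+6041 to +9440 bp). All bases of the Cbx2, Ezh2 and H3K27me3 peaks lay within the Ring1b peak. All 4 targets overlapped over 4800 bp in all, of which 2600 bp (+641 to +3240 bp) lay wholly in intron and 2200 bp (+6841 to +9040 bp) included 543 bp of coding exon. Of all genes, 0.765% had as large a share of the window under ESC Ring1b peaks as Shh, whose share was 37.0%, and 0.434% as large a share under H3K27me3 peaks, where Shh had 29.7%.

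At Ihh, peaks of 3 targets held the start site and the Cbx2 peak began past it. The gene lies at chr1:74991891-74998246 on the minus strand (ENSMUSG00000006538.8). The Ring1b peak measured 5600 bp (-1554 to +4045 bp) and 12.5% of Ring1b peaks were as wide. The Ezh2 peak measured 3000 bp (-754 to +2245 bp) and the H3K27me3 peak also 3000 bp (-1154 to +1845 bp). The Cbx2 peak measured 1800 bp (+246 to +2045 bp). Peaks of all 4 targets overlapped over 1600 bp, from +246 to +1845 bp, of which 429 bp were coding exon and 1073 bp intron.

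At Dhh the targets overlapped toward the 3′ part of the gene. The gene lies at chr15:98723462-98728971 on the minus strand (ENSMUSG00000023000.4) and is 5.51 kb long. Its Ring1b peak of 6200 bp (-629 to +5570 bp) covered the whole gene, and 10.5% of Ring1b peaks were as wide. Ezh2 formed a peak of 1200 bp at the start site (-29 to +1170 bp) and another of 1600 bp (+3171 to +4770 bp). The Cbx2 peak of 3000 bp (+1771 to +4770 bp) and the H3K27me3 peak of 3600 bp (+1371 to +4970 bp) both began more than 1 kb past the start site. All 4 targets overlapped over 1600 bp, from +3171 to +4770 bp, of which 885 bp were coding exon, 168 bp other exon and 547 bp intron. A stretch of 200 coding bases from that overlap, the richest in CpGs, is shown because it holds 35 CpGs against 12 in the 300 bases at the start site (chr15:98724536-98724735, minus strand, +4236 to +4435 bp, CpGs in capitals).
Dhh coding stretch: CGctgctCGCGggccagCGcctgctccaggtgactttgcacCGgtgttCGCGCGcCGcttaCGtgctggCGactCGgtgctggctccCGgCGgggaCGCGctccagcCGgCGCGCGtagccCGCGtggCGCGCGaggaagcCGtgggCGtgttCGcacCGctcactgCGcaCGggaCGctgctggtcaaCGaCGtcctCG
The Dhh stretch lies in both the Cbx2 and the H3K27me3 peak because it was picked from the overlap, and the start site lies in neither. It was also picked for its CpGs, so the pair does not relate peaks to CpG content. The same search at Ihh gave 24 CpGs in 200 bases, where the 300 bases at the start site held 30.

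**Figure D2:**
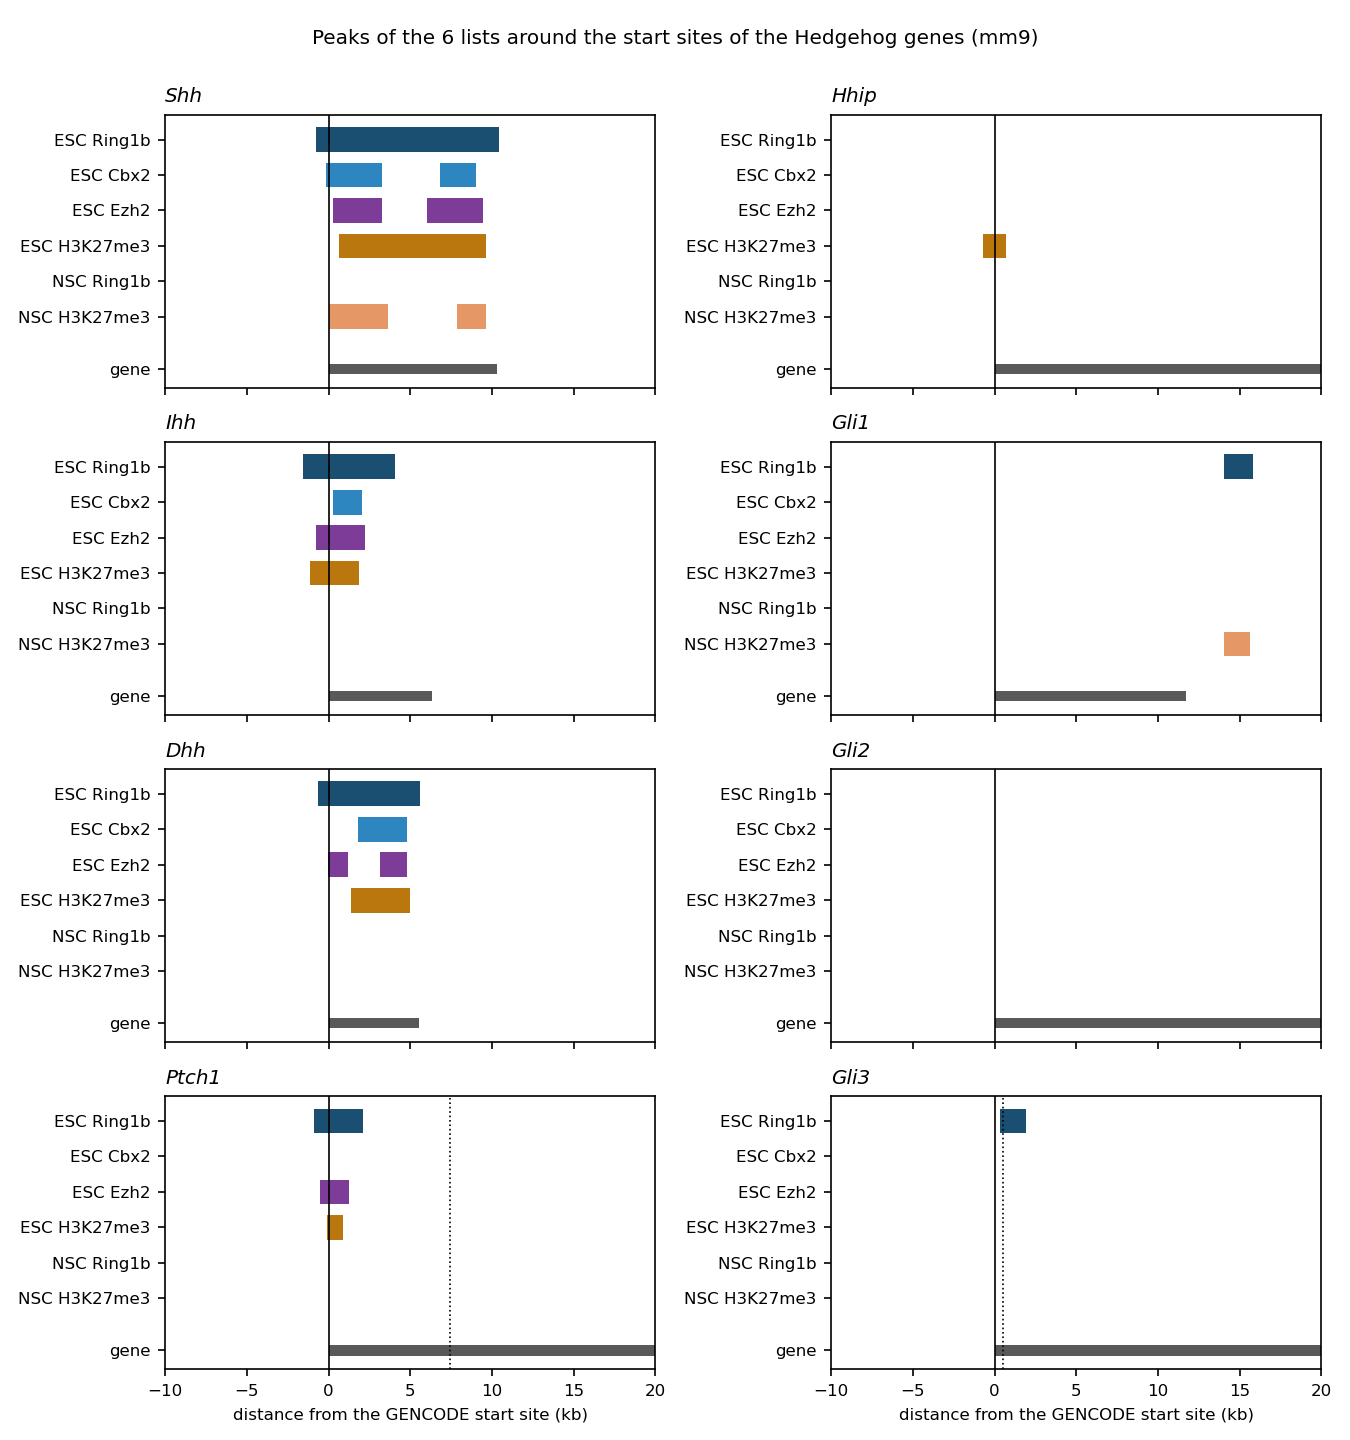
Peaks of the 6 lists (rows) by distance from the GENCODE start site (kb, horizontal axis, from 10 kb before to 20 kb past it) at the 8 genes, with the gene as a grey bar that stops at 20 kb where the gene is longer, the start site as a solid line and, where it lies elsewhere, the RefSeq start as a dotted line. ESC peaks spread over the bodies of Shh, Ihh and Dhh, sit at the upstream start of Ptch1 and at the start of Hhip, lie past the end of Gli1 and are missing from Gli2.

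Ptch1, the receptor, had ESC peaks of 3 targets at a single place. The gene lies at chr13:63610261-63674474 on the minus strand (ENSMUSG00000021466.5), is 64.2 kb long, and GENCODE gives 4 distinct transcript starts for it. The Ring1b peak measured 3000 bp (-926 to +2073 bp), the Ezh2 peak 1800 bp (-526 to +1273 bp) and the H3K27me3 peak 1000 bp (-126 to +873 bp), the smallest width in the lists. They were nested around the most upstream start, and no Cbx2 peak lay in the window. The RefSeq start, whose promoter is printed above, lies 7431 bp further into the gene, and the nearest peak of any list was 5358 bp away from it. The start site count for Ptch1 thus depends on the annotation.

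The only match among the 8 genes to GACCACCCA, the consensus bound by Gli proteins, in the 1 kb around the start site was at Ptch1. The 9 letters were searched on both strands as the one motif, and 0.814% of all protein-coding start sites have them within 1 kb centred on the start. The match (-307 to -299 bp of the GENCODE start) is shown in capitals with its surroundings, because it lies inside the ESC Ring1b and Ezh2 peaks and outside the H3K27me3 peak (chr13:63674742-63674812, minus strand).
Ptch1 motif stretch: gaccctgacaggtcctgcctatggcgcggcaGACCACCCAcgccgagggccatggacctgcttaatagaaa
A match of letters describes the sequence and says nothing of binding in these cells.

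Hhip, a membrane protein that binds and blocks Hedgehog ligands, had an H3K27me3 peak only. The gene lies at chr8:82490014-82581905 on the minus strand (ENSMUSG00000064325.3) and is 91.9 kb long. The peak of 1400 bp (-695 to +704 bp) was centred near the start site and overlapped 214 bp of coding exon. No Ring1b, Cbx2 or Ezh2 peak lay in the window, and the nearest ESC Ring1b peak was 820.5 kb from the start site. At this gene the mark was therefore listed without any of the 3 proteins.

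The Gli genes had few peaks, and each had another arrangement of them. Gli1, an activator and itself a target of the pathway (ENSMUSG00000025407.5, chr10:126766945-126778645, minus strand), had no peak over its body. An ESC Ring1b peak of 1800 bp lay 2345 bp past its 3′ end, inside the body of the neighbouring gene Arhgap9, so its place in the window of Gli1 rests on the 10 kb flank. Gli3 (ENSMUSG00000021318.9, chr13:15555068-15821859, plus strand) had an ESC Ring1b peak of 1600 bp (+333 to +1932 bp), which took up 0.56% of the window and overlapped 389 bp of exon outside the coding sequence and 1211 bp of intron of a 266.8 kb gene. The GENCODE start of Gli3 is 333 bp outside this peak, while the RefSeq start, 488 bp further into the gene, is inside it. Gli2, the main activator of the pathway (ENSMUSG00000048402.8, chr1:120730709-120950196, minus strand), had no peak in any list, and the nearest ESC Ring1b peak was 365.8 kb from its start site.

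In NSCs no member had a Ring1b peak in its window, against 4.64% of all genes, and 2 had an H3K27me3 peak, Shh and Gli1, against 4.7%. No member had its start site in a peak of either NSC list, against 1.74% of all start sites for Ring1b and 1.77% for H3K27me3. With these shares, a count of 0 among 8 genes is near the background, at the start site and for Ring1b in the window. Among all genes with an ESC Ring1b peak in the window, 22.9% had an NSC Ring1b peak there too, and of the 6 members with an ESC Ring1b peak none did. The corresponding share for H3K27me3 was 29.6% over all genes, and 1 of the 5 members with an ESC H3K27me3 peak, Shh, had one in NSCs. Of the 442 genes with peaks of all 4 ESC targets in the window, 58.4% had an NSC Ring1b peak and 63.1% an NSC H3K27me3 peak. The 3 ligands belong to these 442 genes, and had no NSC Ring1b peak and an H3K27me3 peak at Shh only. The counts among members with ESC peaks rest on 3 to 6 genes, and none of the counts was tested against the shares over all genes.

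The ligands differed among themselves in NSCs. Shh carried 2 NSC H3K27me3 peaks, of 3600 bp (+41 to +3640 bp) and 1800 bp (+7841 to +9640 bp), which covered 52.5% of the gene. Of these 5400 bp, 4800 bp lay under the ESC H3K27me3 peak of 9000 bp. The break between the NSC peaks fell within the gene, as did the breaks between the ESC Cbx2 peaks and between the ESC Ezh2 peaks. The nearest NSC Ring1b peak was 253.8 kb from the Shh start site. The nearest NSC H3K27me3 peak was 43.7 kb from the body of Ihh and 99.3 kb from the body of Dhh. At Gli1, an NSC H3K27me3 peak of 1600 bp lay at the place of the ESC Ring1b peak past the 3′ end, where no ESC H3K27me3 peak was listed.

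NSC H3K27me3 peaks were present at genes close to Ihh and Dhh. Within 100 kb of Ihh, the start sites of Cdk5r2, a neuronal activator of Cdk5, and Fev, a transcription factor of serotonin neurons, lay in ESC Ring1b peaks of 3400 and 7200 bp and in NSC H3K27me3 peaks of 5000 and 3000 bp. Further from Dhh, with its near edge 104571 bp past the start site, an ESC Ring1b peak of 5200 bp held the start site of Wnt1, a secreted signal of the midbrain, and an NSC H3K27me3 peak of 3400 bp lay over the body of Wnt1. The start sites of Cryba2, a lens crystallin gene near Ihh, and of Ddn, the gene of the dendritic protein dendrin near Dhh, lay in ESC Ring1b peaks of 2400 and 5200 bp with no NSC peak listed there. NSC peaks were thus found at some of the neighbours and in neither window. These neighbours were named after their values were seen.

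By the mean over each zone, CpGs in the window of each ligand were densest where all 4 targets overlapped. In the windows of Shh, Ihh and Dhh, sequence under all 4 ESC lists held 65.2, 71.9 and 70.0 CpGs per kb, sequence under some lists 27.3, 43.5 and 26.5, and sequence under no list 11.1, 11.4 and 13.5. The order was the same in all 3. These means hide local differences. At Ihh, the 300 bases printed at the start site lay outside the Cbx2 peak and held 30 CpGs. The 1 kb centred on that start site, partly within the overlap, held 101, denser than the overlap as a whole. Gli3 sequence under its Ring1b peak held 76.2 CpGs per kb, as dense as the overlap of the 4 targets in the ligands, with 1 target listed there. Gli1, Hhip and Ptch1 held 53.9, 48.6 and 43.7 CpGs per kb under their peaks.

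Between genes, the 1 kb around the GENCODE start gave another order. The observed over expected ratio of CpGs, which compares their number with that of the bases C and G, was 0.934 at Gli3, 0.85 at Ptch1, 0.773 at Ihh, 0.675 at Gli2, 0.588 at Hhip, 0.553 at Shh, 0.543 at Gli1 and 0.48 at Dhh. The median over all start sites was 0.549, and over those in ESC Ring1b peaks 0.747. Shh and Dhh, with start sites in Ring1b peaks, thus lay near or below the median of all genes, and Gli2, with no peak, lay above it. At the RefSeq start of Ptch1, which had no peak, the ratio was 0.958, and 3.95% of genes reached it.

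**Figure D3:**
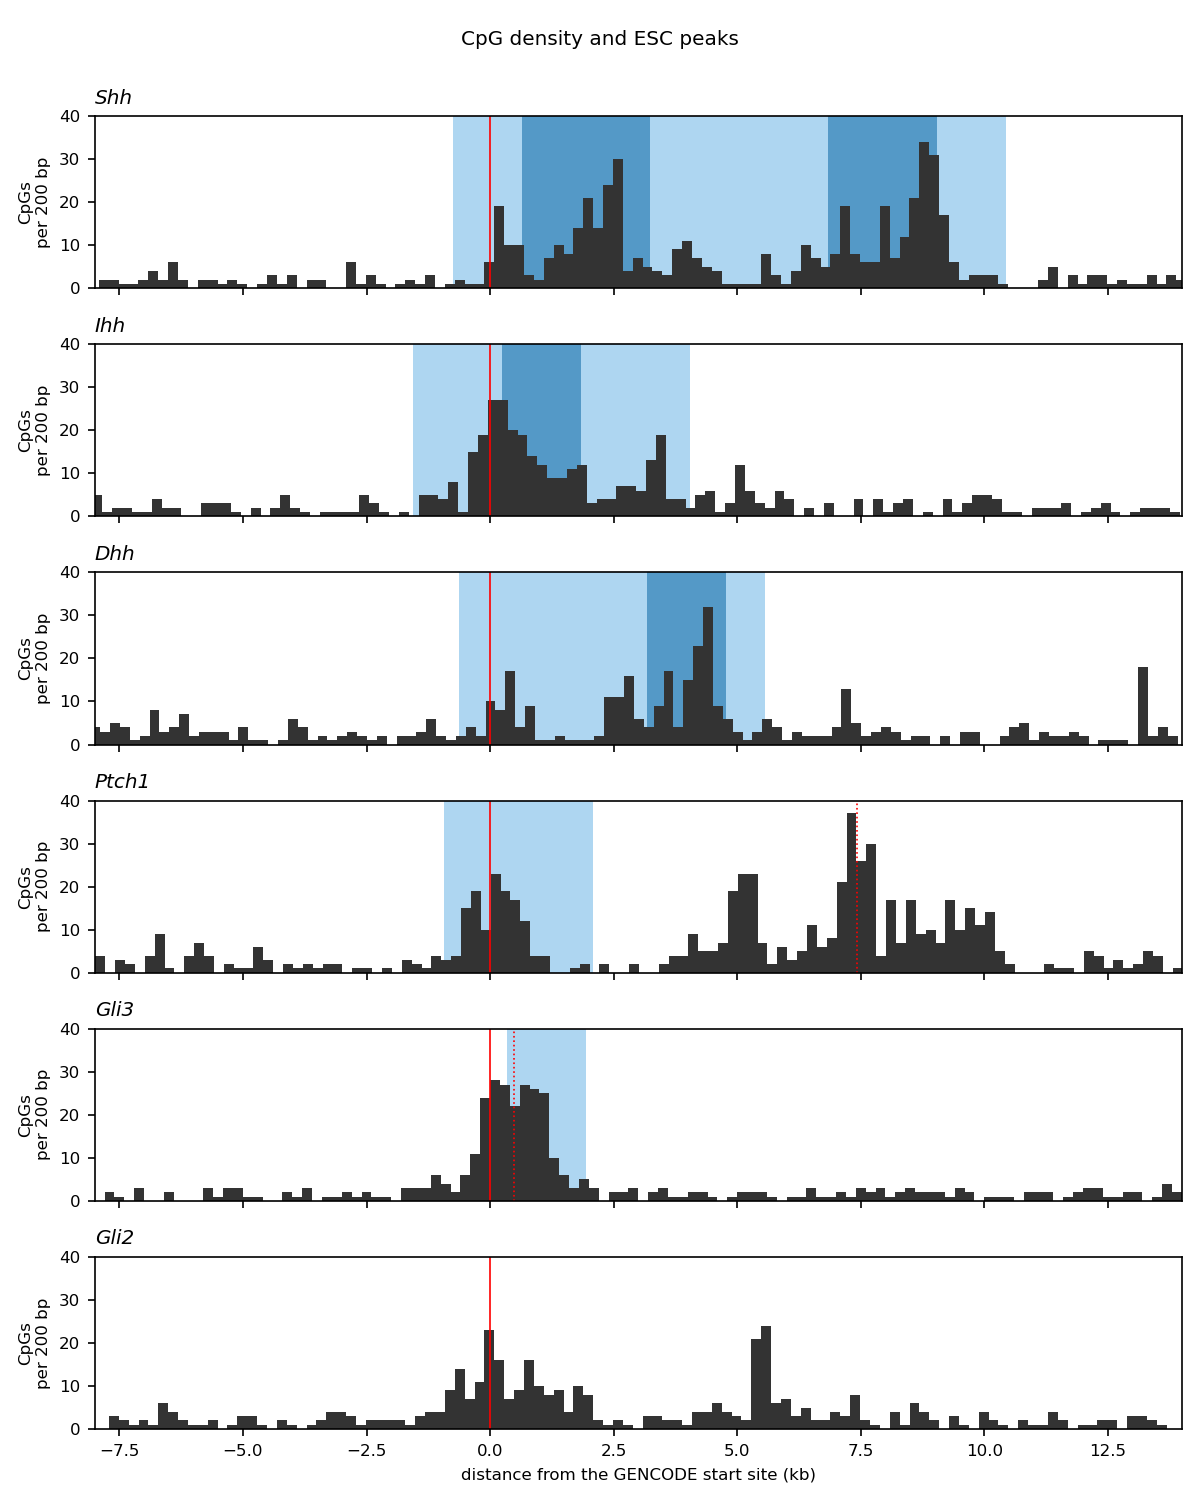
CpGs per 200 bp (vertical axis) by distance from the GENCODE start site (kb, red line; dotted red line, RefSeq start where it lies elsewhere) at 6 of the genes, with ESC Ring1b peaks in light blue and sequence under all 4 ESC lists in darker blue. The bins with most CpGs at Shh (34) and Dhh (32) lie inside the gene under the darker blue, with further dense bins outside it, whereas the dense parts at the RefSeq start of Ptch1 and at Gli2 have no shading.

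Other genes of the pathway, from a list of 28 of which 27 were found in the annotation (Disp1 was not matched), were looked up by start site. Of 19 genes for release and reception of the ligand and for transduction, 7 had the start site in an ESC Ring1b peak, against 7.03% of all start sites. None of the 19 was in a Cbx2, Ezh2 or H3K27me3 peak, and with 1.15, 2.56 and 4.31% of all start sites in these lists, a count of 0 among 19 genes is near the background. The widest of the 7 was at Lrp2, an endocytic receptor that binds Shh, with 4800 bp. Gas1, a co-receptor, had 3400 bp in ESCs and also an NSC Ring1b peak of 3200 bp. Gpc3, a glypican that competes for ligand, had 1800 bp, and the co-receptor Boc and the transducer Smo had 1600 bp each. At Hhat, the enzyme that adds palmitate to the ligands, the peak had the smallest width, 1000 bp. Spop, an adaptor for Gli degradation, had peaks of 1800 bp in ESCs and 1600 bp in NSCs. Gas1 and Spop were the only ones of the 19 with the start site in an NSC Ring1b peak, against 1.74% of all start sites. None of the 19 lay in an NSC H3K27me3 peak, against 1.77%, which is near the background.

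The listed targets of the pathway that had an ESC Ring1b peak at the start site had broader ones than the genes for release, reception and transduction. This does not hold for all targets. Ptch1, Hhip and Gli1 are targets too, but are counted among the members and not here. The ESC Ring1b peak at the Ptch1 start site measured 3000 bp, and the start sites of Hhip and Gli1 lay in none. Of 8 listed, 6 had the start site in an ESC Ring1b peak and 5 in each of the Cbx2, Ezh2 and H3K27me3 lists. The shares over all start sites were 7.03, 1.15, 2.56 and 4.31% in these 4 lists. The Ring1b peaks measured 18600 bp at Foxf1a, 17400 bp at Nkx2-2, 12400 bp at Foxa2 and at Nkx6-1, 11600 bp at Olig2 and 9200 bp at Ccnd2, so that 5 of the 6 were wider than the one at Shh. The first 5 encode transcription factors and Ccnd2 a cyclin. At the start site itself, Foxa2 lacked Ezh2 and H3K27me3, and Ccnd2 lacked Cbx2. The nearest ESC peaks of these targets were 905 bp (Ezh2) and 2305 bp (H3K27me3) from the Foxa2 start. A Cbx2 peak lay 66 bp from the Ccnd2 start. In NSCs, Nkx6-1 had a Ring1b peak of 8800 bp, and H3K27me3 peaks were at Foxf1a (7800 bp), Foxa2 (6200 bp) and Nkx6-1 (5600 bp), against 1.74 and 1.77% of all start sites. Ccnd1 and Mycn, which drive growth, had their start sites in none of the 6 lists.

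**Figure D4:**
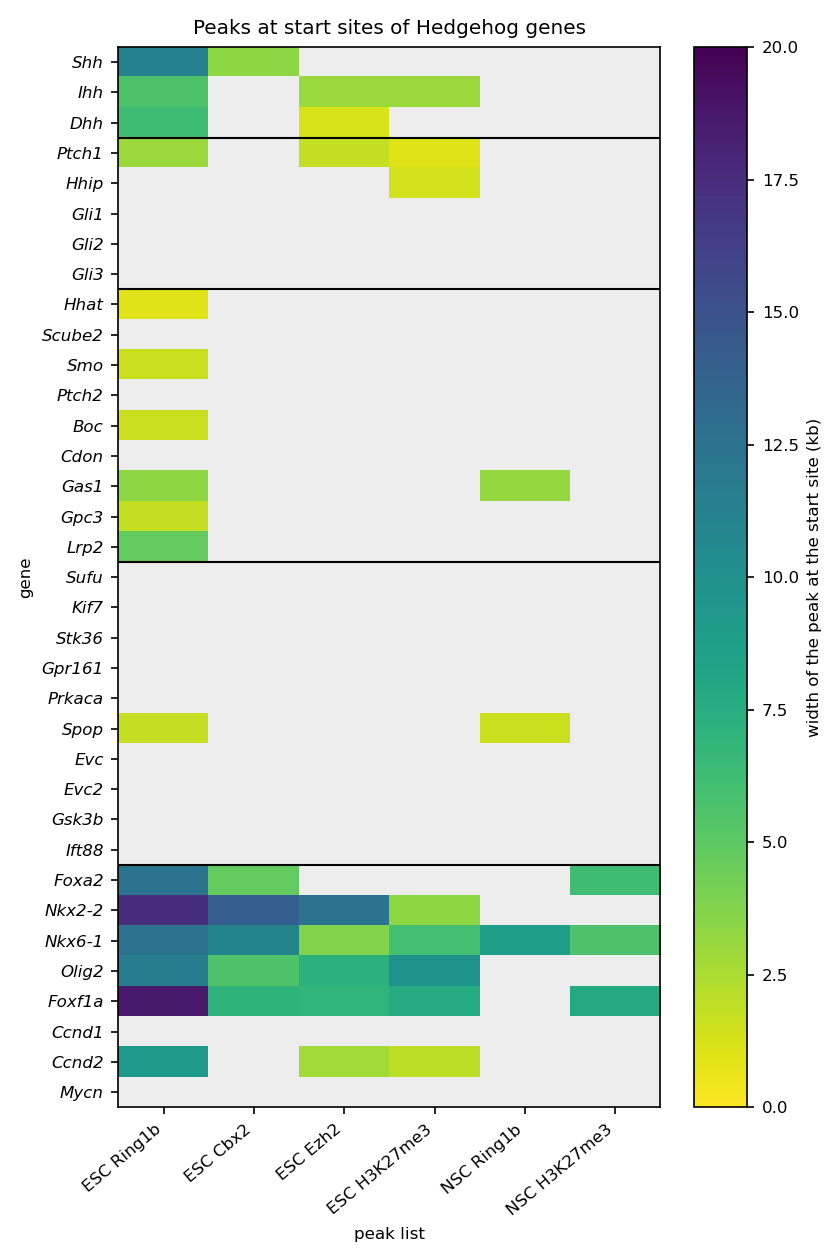
Width (kb, colour scale 0 to 20) of the peak that holds the start site, for the 8 genes and the 27 other pathway genes (rows, in groups set apart by lines: ligands; receptor, inhibitor and Gli genes; release and reception; transduction; targets) in the 6 lists (columns), grey where no peak holds it. The 3 ligands, Ptch1 and 6 of the 8 targets have colour in at least 2 lists, and the 7 coloured genes of the 19 for release, reception and transduction have it in Ring1b columns only.

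The start sites of cell type markers were looked up, which show peaks and not expression. Pou5f1 and Nanog, transcription factors of pluripotent cells, lay in no list. In ESCs, the start sites of Nes, Olig2 and Pax6, genes of neural progenitors, lay in Ring1b peaks, against 7.03% of all start sites. Olig2 also lay in Cbx2, Ezh2 and H3K27me3 peaks, Nes in an Ezh2 peak and Pax6 in an H3K27me3 peak. None of these 3 lay in a peak of an NSC list, against 1.74% (Ring1b) and 1.77% (H3K27me3) of all start sites. With shares this low, absence from a list is near the background for so few genes and does not identify the cells. Sox1 was not matched. The Ring1b antibody was raised against RNF2, another name of Ring1b, and the methods of the study add a cross-linking step before formaldehyde for Ring1b, and a separate input was made for it. ESC Ring1b peaks were the widest over the whole genome as well, with a median of 2200 bp against 1400 to 1800 bp in the other ESC lists. The part of these differences in the greater width of the Ring1b peaks at Shh, Ihh, Dhh and Ptch1 was not tested.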

How the data were processed

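The 6 peak lists come from 1 ChIP library each, 4 in ESCs and 2 in NSCs, and samples were grouped by their labels. The deposited values are the starts and ends of peaks on mm9. Fixation was with formaldehyde (1%, 10 min), and sheared chromatin averaged 250 bp. The authors compared tag counts with input in overlapping windows under a negative binomial model and merged neighbouring windows. The paper names Bowtie as aligner and the submitters' processing notes name BWA. The 4 inputs were not analysed here. Depth is unknown, so no interval is given.

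Start sites, exons and bases came from NCBIM37 and its GENCODE annotation, in which 22350 protein-coding genes lie on the 20 chromosomes with any peak. Python 3.11.15 and numpy 2.4.6 were used for overlaps (at least 1 bp) and covered lengths, and the overlap functions were tested on simulated data. With 1 library per cell type and target and no scores, no test was possible, and counts and medians are descriptions. The genes named are the 8 members, other pathway genes with the start site in a peak of any list, and neighbours with a start site inside a peak counted for a member, of which there were none. Other names were chosen after their values were seen. The members and lists were chosen with earlier results of these data known. Alternatives were other flanks, peaks at least 2 kb wide, merging within 3 kb, other overlaps and other start sites.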

Additional observations from a re-analysis of the deposited data

How the results depend on the processing

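With peaks at least 2 kb wide, the genes with all 4 ESC targets in the window fell from 3 to 1 (Shh), the start sites in ESC Ezh2 and H3K27me3 peaks fell from 3 to 1 each (Ihh), the windows with a peak to 4 for ESC Ring1b (without Gli1 and Gli3), to 2 for ESC Cbx2 (without Ihh), to 2 for ESC Ezh2 (without Dhh and Ptch1), to 3 for ESC H3K27me3 and to 1 for NSC H3K27me3, the Ring1b median of the 5 other genes to 0, and the H3K27me3 bases shared by ESCs and NSCs from 4800 to 3000 bp. Start sites within 1 kb of a peak gave 2 for Cbx2 and 2 for all 4 ESC lists together (Shh and Ihh in both), and 1 for NSC H3K27me3 (Shh). A flank of 50 kb added Ihh to the genes with an NSC H3K27me3 peak, for 3. Without a flank, NSC H3K27me3 was left at 1 gene and the Ring1b median of the other 5 genes at 0. The ligand medians with flanks of 0, 5 and 50 kb were 100, 40 and 7.71% for Ring1b, 52.9, 19.3 and 2.84% for Cbx2, 50.3, 18.3 and 3.76% for Ezh2, and 65.3, 23.2 and 4.51% for H3K27me3. Merging within 3 kb raised the Ezh2 median to 18.8%. RefSeq starts and the counts over all 4 lists together were chosen after seeing the data. RefSeq starts gave 4 for Ring1b (Gli3 in place of Ptch1) and 2 each for Ezh2 and H3K27me3. Of the summary values under alternatives, 26 moved, by more than 1.5 times (counts) or out of a 95% binomial interval (shares). That interval was taken around the main share over steps of 200 bp. Such steps are not independent within a peak, so it is a working margin and measures no spread. Within these margins, which are wide for counts this small, 117 stayed. Many of the 117 were values of 0 that stayed at 0, such as the counts and medians for NSC Ring1b, and show no robustness. The NSC H3K27me3 median of the ligands was also among them, although a flank of 50 kb took it from 0 to 2.07%. No replicate could be left out, since each list is 1 library. No paired analysis was possible because each group has 1 sample. Restriction to autosomes and X was already part of the gene set.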
